A study of Homo sapiens with 6 samples.

Results

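The polo-like kinases are a family of serine/threonine kinases, and the genes described here are PLK1, PLK2, PLK3 and PLK4, taken as the 4 rows of the deposited table that carry these names, of 57820 annotated genes. All 4 reached the mean normalised count of 10 that was required for testing, as did 14889 genes in all. RNA was measured by polyadenylated RNA-seq in U2OS cells, an established human osteosarcoma line, treated for 4 h with either 0.05% DMSO, the solvent, or 5 µM NMS-873 dissolved in DMSO. NMS-873 blocks VCP (p97) at an allosteric site; VCP is an ATPase that extracts ubiquitylated proteins from complexes and membranes. Each treatment had 3 libraries of the same line, with 21132311 to 22488952 reads in genes. Whether separate cultures were used for the libraries is not stated in the labels, so spreads and p-values below cover the differences between these libraries, which may be technical.

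A polo-like kinase joins a kinase domain to a carboxy-terminal region of polo boxes, which dock the enzyme on its substrates. PLK1 is made mainly in G2 and mitosis, where it drives mitotic entry, centrosome maturation, spindle assembly and cytokinesis, and it is marked for destruction by the anaphase-promoting complex at mitotic exit. PLK4 starts centriole duplication and limits its own amount by phosphorylating itself, which recruits the ubiquitin ligase SCF with BTRC. PLK2 and PLK3 were first described as immediate early genes, which respond quickly to serum, and both are known to respond to stress and to p53.

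With NMS-873, the mitotic and centriolar kinases and the stress-linked ones did not separate into 2 blocks. PLK2 was 2.03-fold lower, PLK1 was 1.57-fold lower, PLK4 was 1.14-fold lower and PLK3 was 2.18-fold higher. The division therefore ran between PLK2 and PLK3, which are both known as stress-responsive genes. These 4 genes were selected on their family name with their measured differences between NMS-873 and DMSO already known. Their levels and differences are therefore a description, and no p-value is given for them. Whether they passed in limma is stated below, and nothing is read from it.

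The 150 bases before the start of each gene are shown because the promoters of these genes are known to be controlled in different ways, PLK1 by the cell cycle and PLK2 and PLK3 by stress and p53. They are reference sequences from RefSeq (build GRCh38.p14), all 4 members were matched by symbol, and PLK4, which has 3 listed starts, is shown for the first. Capitals mark every match, on either strand, to the motifs searched: the cell cycle homology region (TTTGAA or TTTAAA), the CCAAT box (CCAAT), the core of the cAMP response element (TGACGT), the composite element of ATF4 and C/EBP factors (TGATGNAA), the CArG box of serum response factor and the decamer of the p53 response element.
PLK1, chr16:23678739-23678888, plus strand: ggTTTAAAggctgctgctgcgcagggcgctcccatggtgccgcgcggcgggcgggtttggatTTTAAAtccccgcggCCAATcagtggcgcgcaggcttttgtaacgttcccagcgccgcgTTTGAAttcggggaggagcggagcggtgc
PLK2, chr5:58460087-58460236, minus strand: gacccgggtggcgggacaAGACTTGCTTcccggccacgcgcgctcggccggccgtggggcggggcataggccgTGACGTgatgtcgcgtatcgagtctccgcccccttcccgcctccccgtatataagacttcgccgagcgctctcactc
PLK3, chr1:44800227-44800376, plus strand: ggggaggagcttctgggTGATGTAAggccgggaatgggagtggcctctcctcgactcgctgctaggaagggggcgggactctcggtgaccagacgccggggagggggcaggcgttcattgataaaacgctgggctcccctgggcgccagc
PLK4, chr4:127880743-127880892, plus strand: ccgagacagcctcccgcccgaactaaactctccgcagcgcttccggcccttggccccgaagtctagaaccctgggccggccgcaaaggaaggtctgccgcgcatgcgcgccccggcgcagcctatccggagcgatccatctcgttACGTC

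The full windows searched ran from 250 bases before to 50 bases after each start, and positions below are counted from the start base, which is 0. PLK1 held TTTAAA at -148 and at -88, the CCAAT box at -73 and TTTGAA at -29 (first base of each). Of the 35116 windows of this length, 12.2% held TTTAAA, 34.6% the CCAAT box and 15.2% TTTGAA. PLK2 held a p53 decamer at -132 and the cAMP response element core at -77, motifs found in 6.63% and 7.98% of windows. PLK3 held the ATF4 and C/EBP composite at -133, a motif found in 3.62% of windows. In the first PLK4 window the cAMP response element core lay on the opposite strand from -5 and ran onto the start base, and TTTGAA lay on the opposite strand at 38; the second window held no match and the third held a CCAAT box on the opposite strand at -86. No window of the 4 genes held a CArG box, which 1.29% of windows did. These are matches of letters in a reference sequence, and nothing in the data measures binding there.

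PLK1 (ENSG00000166851.10; chromosome 16, 23688977 to 23701688, plus strand, hg19, the build of the deposited table) was the second most abundant of the 4 in the DMSO libraries. On the FPKM scale, which divides reads by exon length and by a library scale that here is set by spike-in RNA, it stood at 27.1, 26.7 and 29.5 in DMSO replicates 1 to 3 and at 17.4, 17.5 and 17.96 in NMS-873 replicates 1 to 3. The 3 treated libraries lay within 1 FPKM of each other and below every control library, with a gap of 8.70 FPKM between the groups. The means were 27.8 ± 1.55 FPKM with DMSO and 17.6 ± 0.285 with NMS-873 (SD, n = 3 each), a change of -36.5%. On the log2(normalised count + 1) scale the difference was -0.65 (SE 0.0546). This SE, and that of each member below, comes from limma, which moderates variances across all tested genes. The libraries' own spread gives an SE of 0.0477 for PLK1. In bulk RNA, fewer cells in G2 and mitosis and less PLK1 RNA per cell cannot be told apart.

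PLK2 (ENSG00000145632.10; chromosome 5, 57749809 to 57756087, minus strand, hg19), a kinase with roles in centriole duplication and, in neurons, in synaptic scaling, was the most abundant of the 4 in every control library. It stood at 40.4, 37.1 and 39.4 FPKM with DMSO and at 18.4, 19.1 and 20.02 FPKM with NMS-873. The groups did not overlap, and the gap between them, 17.1 FPKM, was the widest of the 4 genes. The means were 39.0 ± 1.69 FPKM and 19.2 ± 0.792 FPKM (SD, n = 3 each), a change of -50.8% and a log2 difference of -1.02 (SE 0.0540).

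PLK3 (ENSG00000173846.8; chromosome 1, 45265897 to 45271662, plus strand, hg19), a kinase linked to responses to DNA damage, oxidative stress and hypoxia, was the least abundant of the 4 in every control library. It stood at 7.24, 7.38 and 8.22 FPKM with DMSO and at 16.4, 16.2 and 17.1 FPKM with NMS-873. Every treated library was higher than every control library, by at least 7.97 FPKM. The means were 7.61 ± 0.533 FPKM and 16.6 ± 0.496 FPKM (SD, n = 3 each), a change of 118% and a log2 difference of 1.12 (SE 0.0624).

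PLK4 (ENSG00000142731.6; chromosome 4, 128802016 to 128820350, plus strand, hg19) differed least. It stood at 12.98, 11.8 and 13.1 FPKM with DMSO and at 10.8, 11.02 and 11.4 FPKM with NMS-873. The highest treated library lay 0.450 FPKM under the lowest control library, so the groups were separate by less than the SD of the controls. The means were 12.7 ± 0.703 FPKM and 11.1 ± 0.310 FPKM (SD, n = 3 each), a change of -12.5% and a log2 difference of -0.19 (SE 0.0588). The median of all tested genes was at -0.10 on the same scale, which leaves -0.089 for PLK4 relative to the typical gene, against -0.55 for PLK1, -0.92 for PLK2 and 1.23 for PLK3.

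**Figure D1:**
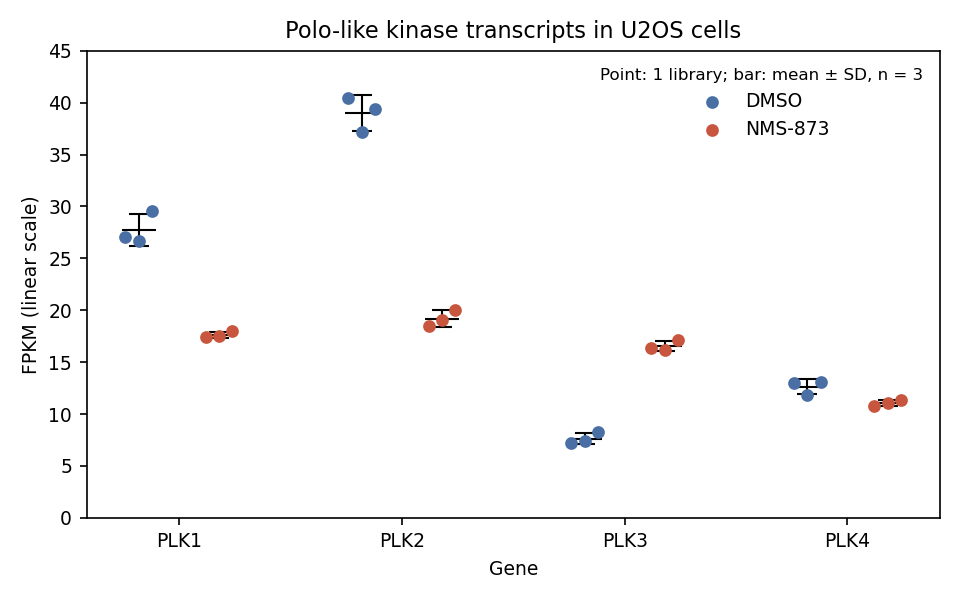
FPKM of each polo-like kinase (y axis, linear) by gene (x axis) in 3 DMSO and 3 NMS-873 libraries, with points for libraries and bars for the mean ± SD. The DMSO means run from 7.61 for PLK3 to 39.0 for PLK2, while with NMS-873 the means of PLK1, PLK2 and PLK3 lie between 16.6 and 19.2.

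The table also has a row for PLK5, the family member that lacks an active kinase domain in humans and is known mainly from brain. It held 2 reads over the 6 libraries, 1 in DMSO replicate 3 and 1 in NMS-873 replicate 3, and was not tested. PLK1S1, whose symbol shares the name of PLK1 but which encodes kizuna, a centrosomal substrate of PLK1, was looked at after its values were seen. It rose 1.53-fold, from 150 ± 12.8 to 229 ± 19.3 normalised counts (SD, n = 3 each; log2 difference 0.61, adjusted p = 3.47e-08 by limma), with every treated library above every control library.

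Each level rests on 535 to 4138 reads per gene and library. The coefficient of variation between libraries of a treatment was 1.62% to 7.00% for the 4 genes, while counting error alone gives 1.56% to 4.13%. All 4 genes passed an adjusted p of 0.05 in limma, as did 47.9% of all tested genes, and for all 4 the groups did not overlap, as for 53.6% of tested genes. In 3 of them every treated library lay below every control library, as for 37.2% of tested genes, and in 1 above, as for 16.4%. Nothing is read from these counts, since this contrast was known when the genes were chosen. When the libraries were scaled to the median of ratios over genes in place of the deposited scale, 3 of the 4 passed and PLK4 did not, with a log2 difference of -0.088; PLK4 also did not pass without the intensity trend in limma. The deposited scale is set by ERCC spike-in RNA, synthetic transcripts that took 0.359% to 0.386% of the reads.

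Among all 14889 tested genes, PLK2 and PLK3 lay near opposite ends. Only 2.04% of genes had a more negative log2 difference than PLK2, and 1.26% had a more positive one than PLK3. For PLK1 7.12% of genes were more negative. For PLK4 the share was 35.5%, in the middle of the distribution.

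**Figure D2:**
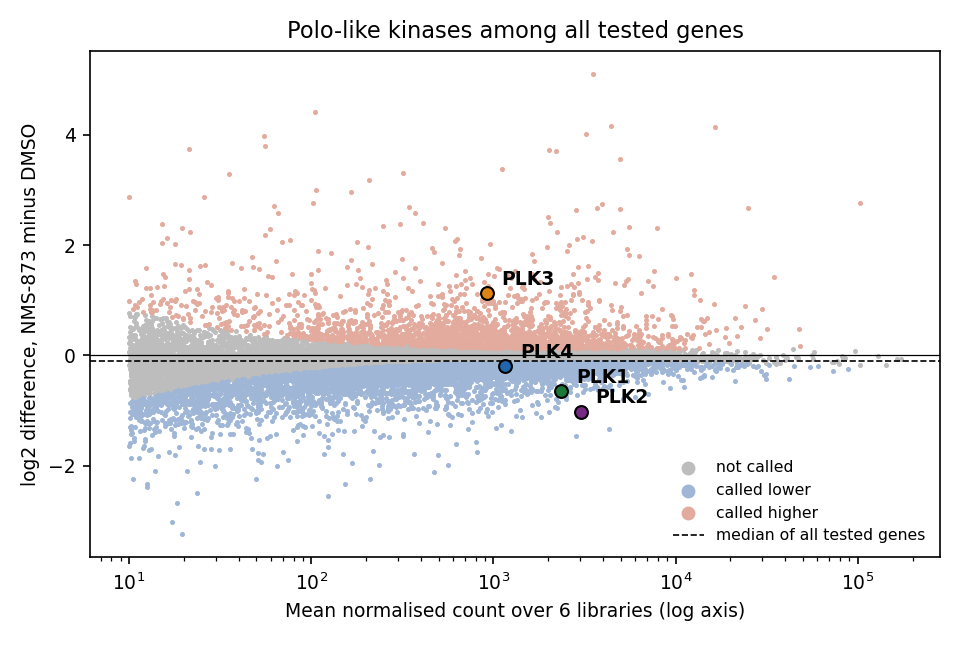
Log2 difference between NMS-873 and DMSO (y axis) against the mean normalised count over the 6 libraries (x axis, log scale) for all 14889 tested genes, coloured by the limma call, with the 4 polo-like kinases marked. PLK3 lies at 1.12, PLK4 at -0.19 close to the dashed median of -0.10, PLK1 at -0.65 and PLK2 at -1.02.

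The order of the 4 levels changed at 1 place. In all 3 DMSO libraries it ran PLK2, PLK1, PLK4, PLK3 from high to low, and the closest neighbours, PLK4 and PLK3, were 3.62 FPKM apart at their nearest libraries. In all 3 NMS-873 libraries it ran PLK2, PLK1, PLK3, PLK4. Here PLK2 and PLK1 were 0.488 FPKM apart at their nearest libraries and PLK1 and PLK3 0.304 FPKM apart, gaps that are smaller than the SD of PLK2 (0.792 FPKM) and of PLK3 (0.496 FPKM). Levels per length depend on the exon length assigned to a gene, which the table implies to be 4760 bases for PLK1, 4768 for PLK2, 3479 for PLK3 and 4482 for PLK4; a gene whose main transcript is shorter than that has its level understated.

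The summed FPKM of the 4 genes was 87.8, 83.02 and 90.3 in DMSO replicates 1 to 3 and 63.1, 63.8 and 66.5 in NMS-873 replicates 1 to 3, so that the groups did not overlap. PLK2 made up 44.8% ± 1.22 of the sum with DMSO and 29.8% ± 0.454 with NMS-873 (SD, n = 3 each, as for the other shares). PLK3 went from 8.75% ± 0.448 to 25.7% ± 0.314. The share of PLK1 was 31.9% ± 0.930 and then 27.4% ± 0.333, and that of PLK4 was 14.5% ± 0.261 and then 17.2% ± 0.0989. The treated libraries thus held PLK1, PLK2 and PLK3 transcripts in nearly equal parts, in place of a mixture led by PLK2 and PLK1.

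**Figure D3:**
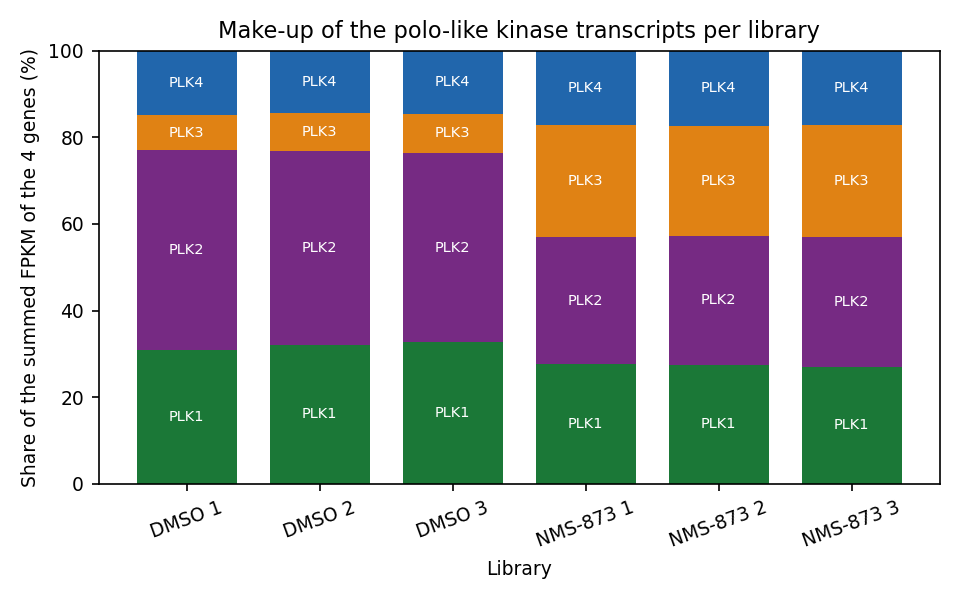
Share of each polo-like kinase (y axis, percent of the summed FPKM of the 4 genes) in each of the 6 libraries (x axis). The PLK3 segment widens from a mean of 8.75% in the DMSO libraries to 25.7% in the NMS-873 libraries, and the PLK2 segment narrows from 44.8% to 29.8%.

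The ratio of 2 genes within a library does not depend on how libraries are scaled. The ratio of PLK3 to PLK2, in FPKM, was 0.179, 0.199 and 0.209 in DMSO replicates 1 to 3 and 0.889, 0.848 and 0.856 in NMS-873 replicates 1 to 3. It was 4.43-fold higher with NMS-873, a log2 change of 2.15 (SE 0.0686 from the libraries' own spread). The ratio of PLK3 to PLK1 was 0.274 ± 0.00619 with DMSO and 0.940 ± 0.0141 with NMS-873 (SD, n = 3 each), which is 3.43-fold higher. Between the control libraries this ratio varied relatively less than either gene alone.

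The 2 cell cycle kinases also did not move by the same amount. The ratio of PLK4 to PLK1 was 0.479, 0.444 and 0.445 in the DMSO libraries and 0.618, 0.630 and 0.635 in the NMS-873 libraries, 1.38-fold higher (log2 change 0.46, SE 0.0376). PLK2 was lower relative to PLK1 as well, with a ratio of 1.41 ± 0.0798 in DMSO and 1.09 ± 0.0290 in NMS-873, and lower relative to PLK4, with 3.08 ± 0.0728 and 1.73 ± 0.0230 (SD, n = 3 each). In each of these pairs every treated library lay on 1 side of every control library.

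Around PLK1, a list of 38 partners, substrates and other mitotic kinases was read in the same fit. Of these, 22 fell and 4 rose at an adjusted p of 0.05 in limma, with a median log2 difference of -0.22, against 33% lower and 14.9% higher among all tested genes and a median of -0.10. With gene-based scaling 19 fell and 8 rose. The 4 that rose were CDC25A, NEDD1, CLIP1 and MASTL, named after their values were seen. That count came to 2 when DMSO library 1, DMSO library 2 or NMS-873 library 2 was left out, and to 1 when NMS-873 library 3 was.

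AURKA, the kinase that phosphorylates the activation loop of PLK1, had the most negative difference of the list, falling from 2935 ± 147 to 1524 ± 104 normalised counts (SD, n = 3 each; log2 difference -0.95, adjusted p = 2.44e-42 by limma). BORA, the cofactor that AURKA needs to reach PLK1 before mitosis, was at 499 ± 6.49 and 452 ± 9.73 normalised counts and did not pass (log2 difference -0.14, adjusted p = 0.0874 by limma). All 3 treated libraries lay below the controls for BORA, and it passed as lower with equal totals of reads and on log2(FPKM + 0.1), both at -0.14. BUB1B, a checkpoint kinase and docking partner of PLK1, fell 1.6-fold, and KIF20A, the kinesin that brings PLK1 to the central spindle, fell 1.53-fold. Set beside this list, the log2 difference of PLK1 was more negative than those of 36 of the 38 genes, the exceptions being AURKA and BUB1B.

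Around PLK4, the genes of centriole duplication showed no common direction. Of 30 tested, 9 fell and 7 rose, with a median log2 difference of -0.06. That is 30% lower and 23.3% higher, against 33% and 14.9% of all tested genes and a median of -0.10. With gene-based scaling 4 fell and 11 rose. Without NMS-873 replicate 1, 5 fell. STIL, which binds and activates PLK4, had 1934 ± 69.3 normalised counts in the controls and 2003 ± 39.8 in the treated libraries (SD, n = 3 each), and SASS6, which forms the centriolar cartwheel, was at 468 ± 30.2 and 432 ± 23.5; neither passed (adjusted p = 0.462 and adjusted p = 0.192 by limma). STIL passed as higher with gene-based scaling, at a log2 difference of 0.155. CEP152, a scaffold that brings PLK4 to the centriole, was 1.14-fold higher (adjusted p = 0.0235 by limma), a call that was lost when DMSO library 2, DMSO library 3 or NMS-873 library 1 was left out, at log2 differences of 0.16, 0.18 and 0.14, and also on log2(FPKM + 0.1) and without the variance trend, at 0.18 and 0.19.

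By adjusted p, this list was led by RBM14, an RNA-binding protein that restrains centriole assembly, CCNF, which encodes the cyclin F subunit of a ubiquitin ligase, and TUBE1, which encodes epsilon-tubulin. RBM14 fell 1.81-fold and CCNF fell 1.66-fold. TUBE1 rose 1.94-fold, from 310 ± 22.2 to 602 ± 18.6 normalised counts (SD, n = 3 each). PLK4 itself, at -0.19, had 6 of the 30 genes below it and 24 above.

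VCP acts on ubiquitylated proteins, and the enzymes that mark polo-like kinases for degradation or reverse their phosphorylation were listed for that reason. Among 30 tested, 12 fell and 4 rose (median log2 difference -0.12, close to the -0.10 of all genes). That is 40% lower and 13.3% higher, against 33% and 14.9% of all tested genes. The count that rose was 2 without DMSO replicate 2 or NMS-873 replicate 3. With gene-based scaling 7 fell and 10 rose, so the balance of this list depended on the scale. CDC20, the activator of the anaphase-promoting complex in mitosis, fell 1.44-fold, from 8055 ± 310 to 5604 ± 355 normalised counts (SD, n = 3 each). FZR1, the activator that directs the complex to PLK1 at mitotic exit, was at 1150 ± 78.2 and 1140 ± 35.5 normalised counts and did not pass (adjusted p = 0.884 by limma). ANAPC13 and ANAPC2, subunits of the same complex, fell 1.49-fold and 1.31-fold. BTRC, the receptor for phosphorylated PLK4, was 1.1-fold lower and did not pass (adjusted p = 0.0631 by limma), although it did without NMS-873 replicate 2, at a log2 difference of -0.18, and with equal totals of reads, at -0.13.

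Among 23 transcription factors that control the cell cycle, 7 fell and 4 rose, and the median log2 difference was 0.05. These counts are 30.4% and 17.4% of the list, near the 33% lower and 14.9% higher of all tested genes. With gene-based scaling 6 fell and 12 rose. FOXM1, an activator of PLK1 and other G2 genes, fell 1.21-fold, from 7831 ± 263 to 6474 ± 325 normalised counts (SD, n = 3 each; adjusted p = 6.54e-06 by limma). MYBL2, which acts with it through the cell cycle homology region, was at 9391 ± 441 and 8642 ± 596 and did not pass (adjusted p = 0.0654 by limma); it passed as lower without NMS-873 replicate 3, at a log2 difference of -0.16, and also with equal totals of reads and in limma voom, both at -0.12. By adjusted p, the list was led by E2F7, a repressor of cell cycle genes, which rose 1.72-fold, E2F2, an activator, which fell 1.94-fold, and E2F8, a repressor, which fell 1.69-fold. PLK1, at -0.65, was more negative than 21 of the 23, E2F2 and E2F8 being lower.

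PLK2 and PLK3 are both known targets of p53, and they were read beside other targets, without counting the pair itself. Of 24 tested targets 16 rose and 3 fell, with a median log2 difference of 0.33. That is 66.7% higher and 12.5% lower, against 14.9% and 33% of all tested genes and a median of -0.10. SESN2, which restrains mTORC1 when leucine is short, rose 11.8-fold, PMAIP1, which encodes the apoptosis factor NOXA, rose 2.53-fold, and GADD45A, a growth arrest gene, rose 2.36-fold. Each of these is also known to respond to the integrated stress response. MDM2, the ubiquitin ligase of p53, rose 1.29-fold, from 2173 ± 21.9 to 2802 ± 85.3 normalised counts (SD, n = 3 each). PLK2, at -1.02, was lower than all 24, and the 3 targets that fell, TRIAP1, DDB2 and TP53I3 (named after their values were seen), lay at -0.21, -0.17 and -0.32; DDB2 no longer passed with gene-based scaling, at -0.071. PLK3, at 1.12, was higher than 19 of the 24.

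The immediate early genes gave the same contrast. Of 31 tested, 24 rose and 3 fell, with a median log2 difference of 0.71, and the count was 24 and 2 with gene-based scaling. On the deposited scale that is 77.4% higher and 9.68% lower, against 14.9% and 33% of all tested genes. ATF3, a stress transcription factor, rose 16.2-fold, DUSP1, a phosphatase of MAP kinases, rose 6.31-fold, and PPP1R15A, a phosphatase subunit that acts on eIF2 alpha, rose 4.72-fold. EGR1, a zinc finger factor induced by serum, rose 4.4-fold, from 1150 ± 86.3 to 5067 ± 413 normalised counts (SD, n = 3 each). FOS and JUN, which form the factor AP-1, rose 2.64-fold and 1.37-fold, the first from a low level of 102 ± 22.3 normalised counts. PLK3 had 21 of the 31 genes below it and 10 above. PLK2 had 1 below it, EGR3 at -1.04. EGR3 had a control level of 17.2 normalised counts, and its call was lost when DMSO library 3 or NMS-873 library 1 was left out, at -0.76 and -0.50. It was also lost with gene-based scaling, on log2(FPKM + 0.1) and without the variance trend, at -0.95, -0.54 and -1.04. The other 2 that fell were KLF10 at -0.89 and IER5 at -0.35, and these 3 were named after their values were seen.

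**Figure D4:**
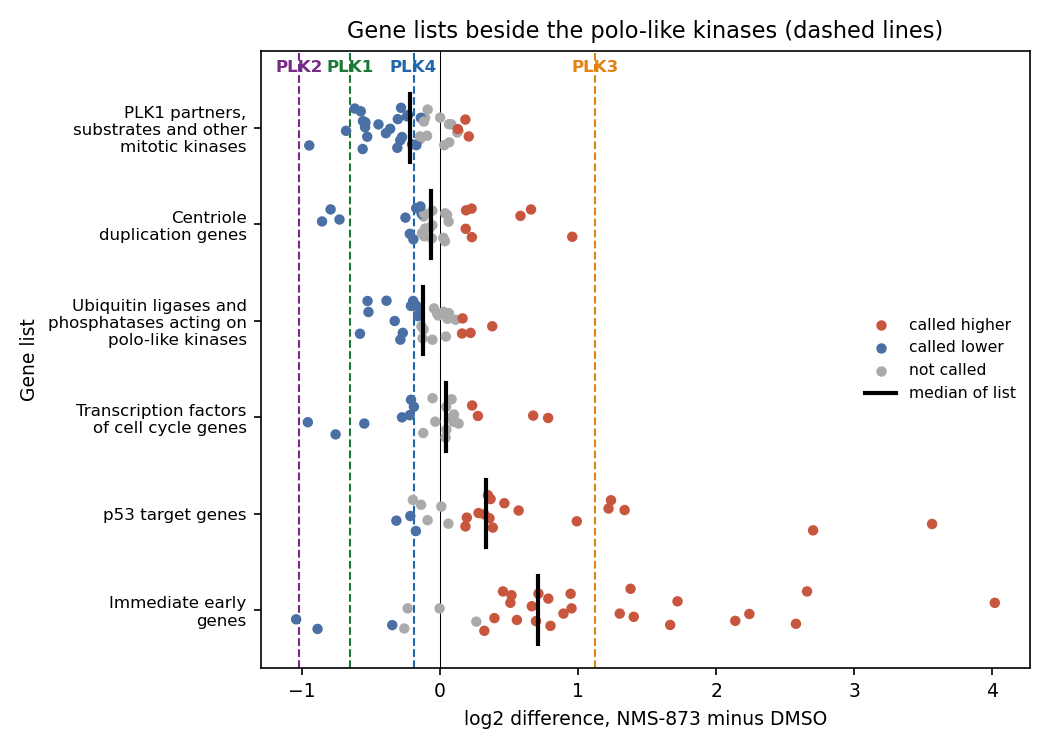
Log2 difference between NMS-873 and DMSO (x axis) of every tested gene in the 6 gene lists (y axis, spread within each row for visibility), coloured by the limma call, with the list median as a bar and the 4 polo-like kinases as dashed lines. PLK2 at -1.02 lies left of all points in 5 of the 6 lists, with 1 immediate early gene beyond it, and PLK3 at 1.12 lies right of all points in the first 4 lists.

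Genes near PLK3, PLK4 and PLK1 on the chromosomes were read for comparison. BTBD19, which begins 2492 bases beyond PLK3, was 1.3-fold lower where PLK3 was higher (185.5 ± 30.4 normalised counts with NMS-873 and 241 ± 29.8 with DMSO; SD, n = 3 each; adjusted p = 4.45e-04 by limma), although its groups overlapped and the call was lost with gene-based scaling, at a log2 difference of -0.28, and without the variance trend, at -0.38. MFSD8, 18610 bases beyond PLK4, was at 174 ± 19.6 and 173 ± 2.70 normalised counts and did not pass, and INTU, on the other side of PLK4, did not pass either. Next to PLK1, the non-coding gene CTD-2196E14.9 was 1.27-fold lower (adjusted p = 0.0337 by limma) with overlapping groups. That call was lost with gene-based scaling, at a log2 difference of -0.25, and when DMSO library 1, NMS-873 library 1 or NMS-873 library 3 was left out, at -0.27, -0.23 and -0.27. It was also lost with equal totals of reads, without a minimum, on log2(FPKM + 0.1) and without the variance trend, at -0.34, -0.35, -0.33 and -0.35. PRKCB, the nearest tested gene on the other side, did not pass.

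PLK2 stands alone in its region: the nearest tested genes are ACTBL2 at 971173 bases and DEPDC1B at 2136652 bases. ACTBL2 was 2.18-fold lower, from 33.9 ± 6.07 to 15.6 ± 6.83 normalised counts, and DEPDC1B 1.23-fold lower, and both passed. Genes whose spans overlap a polo-like kinase were almost silent: ERN2 and CTD-2196E14.5 at PLK1 held 1 and 2 reads over the 6 libraries, TCTEX1D4 at PLK3 held 14 and RNU6-583P at PLK4 held 7. The reads assigned to the polo-like kinases therefore far outnumber those assigned to any gene that overlaps them.

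The genes whose profile over the 6 libraries came closest to each kinase were found by the Euclidean distance between log2 values centred on each gene's mean, among the 12078 other genes whose normalised counts averaged 50 or more. For PLK1 they were ZBTB18, a transcriptional repressor (distance 0.0265), VPS18, which serves endosomal traffic (0.0605), and ZC3HAV1, an antiviral RNA-binding protein (0.0684). For PLK2 they were the histone gene HIST1H2AC (0.0720), C15orf52 (0.0797) and PCF11, a transcription termination factor (0.0867). For PLK3 they were USP53 (0.0861), NFE2L2, which encodes the stress factor NRF2 (0.0917), and UPP1, a uridine phosphorylase (0.111). For PLK4 they were ZNF337 (0.0279), MTMR1 (0.0329) and RRP1B (0.0405). Because the profiles span both treatments, this distance depends in large part on the difference between NMS-873 and DMSO. HIST1H2AC, for example, had a log2 difference of -1.03, beside -1.02 for PLK2. No polo-like kinase was among the closest genes of another. Their log2 differences of -0.65, -1.02, 1.12 and -0.19 (PLK1 to PLK4) were already known and too far apart for that. Nothing is therefore read from this absence. None of the genes named here is in the gene lists above.

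The markers matched the label of an osteosarcoma line in part. SPARC, VIM, COL1A1 and FN1, mesenchymal and bone matrix genes, had median levels of 438, 413, 198 and 150 FPKM, while the osteoblast genes SP7 and BGLAP had median levels of 0 and 0.0191 FPKM, the collagen gene COL1A2 was at 0.0366 FPKM and RUNX2 at 0.951 FPKM. Of the 10 osteoblast lineage and mesenchymal markers 6 had a median above 1 FPKM. Their summed level did not overlap between treatments, at 1248 to 1282 FPKM with DMSO and 1120 to 1169 FPKM with NMS-873. Every treated library also lay below every control library for 37.2% of tested genes, and the median tested gene had a log2 difference of -0.10. Nothing about cell identity is read from this sum. RUNX2, picked with its values in view, fell by 0.95 on the log2 scale (adjusted p = 4.24e-16 by limma). At 0.607 to 1.33 FPKM over the 6 libraries, RUNX2 adds little to the summed level, and it does not stand for the list. Over the same 6 libraries SPARC spanned 421 to 449 FPKM, VIM 365 to 463, COL1A1 157 to 233 and FN1 139 to 164. The part of the osteoblast lineage and mesenchymal markers in the differences of the polo-like kinases was not tested. Of 4 blood markers tested none had a median above 1 FPKM, and their summed level was at most 0.0996 FPKM in the DMSO libraries and 0.0755 FPKM in the NMS-873 libraries. Epithelial markers summed to 3.69 to 3.98 FPKM with DMSO and 3.31 to 4.24 FPKM with NMS-873, 2 of 4 being above 1 FPKM. The endothelial marker CDH5 and the 3 neural markers had median levels under 1 FPKM, and the neural markers summed to 1.01 to 1.06 FPKM with DMSO and 0.850 to 0.924 FPKM with NMS-873.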

How the data were processed

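RNA-seq libraries of 3 DMSO and 3 NMS-873 samples, grouped by title, were analysed from 1 deposited table of 57912 rows, 92 of them ERCC spike-in rows. The submitters' processing notes name featureCounts 1.5.1, DESeq2 1.16.1 and the build hg19; the aligner, the annotation and the strand setting are not given in the sources used here. The sample columns the authors deposited hold FPKM, judged from the values, since the header gives only sample names. The table also holds the authors' mean normalised count, a signal in reads after scaling, their log2 fold change and their adjusted p-value; the last 2 are not used in the results.

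Normalised counts were rebuilt from each gene's FPKM and its deposited mean, and with 1 size factor per library 100% of values came within 0.001 of a whole read. In all 6 libraries that factor is the one the spike-in rows give by the median-of-ratios method. Genes averaging 10 or more normalised counts entered limma 3.58.1 (R 4.3.3), fitted to log2(normalised count + 1) with treatment as the term, with an intensity trend, two-sided, Benjamini-Hochberg adjusted. Fold changes are on that scale and understate changes of low genes. Fold sizes are 2 to the power of the log2 difference. The design foresaw FPKM, so limma was kept as the main test. Replicate numbers are shared between groups but were not used as a block. The procedure was tested on simulated data.

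The members, gene lists and alternatives were chosen with earlier results of these data known. Named genes are the members, PLK5, a fixed set of 14 regulators, the up to 3 genes with the lowest adjusted p in each list, the nearest tested neighbours and overlapping genes, and the 3 closest profiles of each member; the text says so where another gene was picked with its values in view. A gene that this rule names is not reported here.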

Additional observations from a re-analysis of the deposited data

How the results depend on the processing

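The log2 differences of the 4 polo-like kinases kept their sign under all 15 alternatives. They moved by more than the spread between replicates only with gene-based scaling (median of ratios over genes), to -0.55 for PLK1, -0.92 for PLK2, 1.23 for PLK3 and -0.088 for PLK4. That scaling puts the median gene at 0.00, and with it the calls over all genes were 3760 higher and 3108 lower, in place of 2217 and 4910. Leaving out 1 library gave 1870 to 2406 higher and 4005 to 4957 lower. For the PLK1 list gene-based scaling gave 8 higher; 2 were higher without a minimum and on log2(FPKM + 0.1), 0 without the variance trend, and 1 to 5 when 1 library was left out. For the centriole list gene-based scaling gave 11 higher and 4 lower, the fit without the trend 4 higher and 5 lower, log2(FPKM + 0.1) 5 lower, and leaving out 1 library 5 to 10 lower. For the ligase and phosphatase list the values were 10 higher and 7 lower with gene-based scaling, 2 higher on log2(FPKM + 0.1), 2 higher and 7 lower without the trend, and 2 to 5 higher when 1 library was left out. For the transcription factors gene-based scaling gave 12 higher. The cause was not tested. FZR1, which did not pass, turned from -0.012 to 0.092 with gene-based scaling, and lay between -0.044 and 0.043 when 1 library was left out. MFSD8, a neighbouring gene that did not pass, lay between -0.080 and 0.10 over the alternatives. The counts of p53 targets and immediate early genes stayed within 1.5 times of the values given under every alternative run. Same-numbered libraries of the 2 treatments did not deviate together (correlations of 0.0394, -0.0254 and 0.0425 for numbers 1 to 3). Not every library correlated best with its own number. The labels give these libraries a shared number, and such correlations cannot show whether they also came from paired cultures. With that number as a replicate block 2352 genes were called higher and 5255 lower, PLK1 to PLK4 were at the same differences, -0.65, -1.02, 1.12 and -0.19, and no count of a list moved by over 1.5 times. Of the genes named in the text, BTRC and MYBL2 passed as lower with the block and not without it (adjusted p = 0.0387 and adjusted p = 0.0244 by limma). Members held at least 535 reads per library, so depth limits mainly the low genes of the lists, such as EGR3.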
